A study of Mus musculus with 69 samples.

Results

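The regions described here are constitutive H3K4me1 regions without H3K27ac: stretches of the mouse genome that carried a peak of H3K4me1 in blood stem cells and progenitors of every Kmt2c genotype, and no peak of H3K27ac in any condition. They were chosen by the peak lists themselves. A region of the wild-type HSC list at 8 weeks was a member when it overlapped, by at least 1 bp, a peak of each of the other 5 H3K4me1 lists at that age and no peak of any of the 8 H3K27ac lists. Of 118083 H3K4me1 regions in wild-type HSCs, 62840 (53.2%) were constitutive and 19310 of these were members. The 8-week H3K4me1 values and the absence of H3K27ac therefore describe the choice and are given without a test, while the 16-week H3K4me1 lists, the genes around the regions and the sequence of promoters were not used in it.

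Histone marks were mapped by ChIPmentation (immunoprecipitated chromatin tagged with the Tn5 transposase) in sorted blood stem cells (HSCs) and blood progenitors (HPCs) of mice in which Kmt2c, the gene of the H3K4 methyltransferase MLL3, can be deleted. The genotypes were wild type, heterozygous (Kmt2c f/+; Vav-Cre) and knockout (Kmt2c f/f; Vav-Cre), and Vav-Cre is active in blood-forming cells, so every knockout and heterozygous group carried the transgene and no wild-type group was labelled with it. Untreated mice of 8 weeks gave the 6 H3K4me1 lists of the choice, for HSCs and HPCs of the 3 genotypes. Wild-type and knockout HSCs of 16-week-old mice, given 5-fluorouracil (5FU, toxic to dividing cells, 150 mg/kg) or PBS 3 times, every 3 weeks, gave 4 H3K4me1 and 4 H3K27ac lists. Wild-type and knockout HPCs of mice aged 8 to 10 weeks, given PBS or the inflammatory cytokine interleukin-1 (IL-1) at 0.5 µg per day for 3 days, gave the other 4 H3K27ac lists. Each group had 3 to 6 libraries and 1 pooled peak list, so no value has a replicate error and no difference between conditions could be tested. Strain, sorting gates and mice per library are not given in the sources used.

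A few properties of the lists bear on every value. The absence of a peak in a list is not the absence of the mark, and no H3K27ac list was analysed here for heterozygous mice or for untreated mice of 8 weeks. The wild-type 5FU list of H3K4me1 drew on 6 libraries with 2 different set numbers in their labels and held 132050 peaks, against 76274 to 87410 in the other 3 lists at 16 weeks. Markers of the sorted cells were checked in windows of 10 kb around the genes. In wild-type HSCs at 8 weeks, all 6 HSC markers had peaks, over 265215 bases against 137949 in wild-type HPCs, whereas Ms4a1, Cd8a, Ncr1 and Cd3e, which mark mature lymphocytes, had 0 bases, and in HPCs Ms4a1 and Cd3e had peaks, over 4291 bases. The 3 stroma and endothelium markers had peaks in both, over 13997 bases in HSCs and 24780 in HPCs, and their part in the results was not tested. The 5 granulocyte and monocyte markers had 40918 bases in HSCs and 71886 in HPCs.

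H3K4me1 is the histone mark of enhancers, laid down by MLL3 and the related enzyme MLL4. Enhancers with H3K4me1 alone are called primed or poised, and those that gain H3K27ac are called active. H3K4me1 also lines the flanks of active promoters, and it can cover the CpG-rich promoters of developmental genes that are silent in a lineage.

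The promoters that overlapped members ranged widely in CpG number, from 0 to 45 in 300 bases, and 6 sequences from genes of the lists show part of that range. They are RefSeq promoter windows (GRCm38.p6, 250 bases before to 50 bases after the gene start), written 5′ to 3′ on the strand of the gene, with each CpG dinucleotide in capitals. The first 3 belong to regulators of tissues other than blood and were picked for having the most CpG among the listed genes of that kind, the others of which had 10 to 23. Msx1 (chr5:37824536-37824835, minus strand, 29 CpG) is a homeobox gene of limb and face, Sox2 (chr3:34649745-34650044, plus strand, 27 CpG) a factor of pluripotent and neural cells, and Olig2 (chr16:91225300-91225599, plus strand, 25 CpG) a factor of oligodendrocytes and motor neurons.
Msx1: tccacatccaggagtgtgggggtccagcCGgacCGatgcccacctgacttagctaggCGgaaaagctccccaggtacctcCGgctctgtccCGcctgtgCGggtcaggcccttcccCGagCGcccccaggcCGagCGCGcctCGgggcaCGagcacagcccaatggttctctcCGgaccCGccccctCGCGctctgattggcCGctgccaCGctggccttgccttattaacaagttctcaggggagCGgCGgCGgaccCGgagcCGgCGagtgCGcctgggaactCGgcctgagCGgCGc
Sox2: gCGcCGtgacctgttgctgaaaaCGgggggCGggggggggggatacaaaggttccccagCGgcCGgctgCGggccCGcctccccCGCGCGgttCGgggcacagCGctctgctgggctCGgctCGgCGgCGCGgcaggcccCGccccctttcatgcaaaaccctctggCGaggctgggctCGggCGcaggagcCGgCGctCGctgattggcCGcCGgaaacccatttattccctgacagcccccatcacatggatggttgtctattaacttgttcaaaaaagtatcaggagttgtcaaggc
Olig2: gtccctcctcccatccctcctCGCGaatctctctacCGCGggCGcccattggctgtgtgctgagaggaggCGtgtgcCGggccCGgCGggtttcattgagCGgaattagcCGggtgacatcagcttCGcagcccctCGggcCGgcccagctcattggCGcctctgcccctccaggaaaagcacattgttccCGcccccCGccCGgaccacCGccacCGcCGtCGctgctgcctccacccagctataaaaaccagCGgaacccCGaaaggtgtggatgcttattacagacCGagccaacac

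The other 3 belong to genes of blood or of inflammation and had 4 to 8 CpG. For Tnfaip3 and Lef1 the window shown is that of 1 listed start, and another listed start lay within 1 kb of an H3K27ac peak. Fcgr3 (chr1:171059354-171059653, minus strand, 4 CpG) encodes a receptor for IgG on myeloid and NK cells, Tnfaip3 (chr10:19011914-19012213, minus strand, 6 CpG) the NF-kB inhibitor A20, and Lef1 (chr3:131112541-131112840, plus strand, 8 CpG) a transcription factor of the Wnt pathway in lymphocytes. Of the 11 named microRNA hairpins in members, the neural microRNA miR-9 had a pair of loci there, Mir9-1 and Mir9-2, and its mature 5p arm is shown with the seed (bases 2 to 8) in capitals.
Fcgr3: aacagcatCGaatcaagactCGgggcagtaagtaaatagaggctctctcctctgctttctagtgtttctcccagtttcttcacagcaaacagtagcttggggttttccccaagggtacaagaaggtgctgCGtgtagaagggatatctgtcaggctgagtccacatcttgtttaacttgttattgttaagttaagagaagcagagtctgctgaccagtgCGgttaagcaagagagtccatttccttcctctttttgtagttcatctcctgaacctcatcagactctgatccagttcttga
Tnfaip3: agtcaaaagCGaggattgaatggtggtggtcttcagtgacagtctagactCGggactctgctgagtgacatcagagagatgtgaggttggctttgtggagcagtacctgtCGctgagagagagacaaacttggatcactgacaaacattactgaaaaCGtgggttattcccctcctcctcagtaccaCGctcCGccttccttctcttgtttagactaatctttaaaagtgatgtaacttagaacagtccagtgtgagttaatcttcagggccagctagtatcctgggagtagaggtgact
Lef1: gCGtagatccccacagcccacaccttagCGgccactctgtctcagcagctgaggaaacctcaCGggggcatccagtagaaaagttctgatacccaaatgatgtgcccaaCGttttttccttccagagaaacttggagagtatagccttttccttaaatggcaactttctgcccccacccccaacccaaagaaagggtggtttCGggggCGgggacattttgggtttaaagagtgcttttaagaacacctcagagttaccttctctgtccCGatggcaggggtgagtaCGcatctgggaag
miR-9-5p: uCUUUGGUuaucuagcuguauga

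The largest single classes of constitutive regions were those with H3K27ac in no list and in all 8, and many regions lay between. Of 62840 regions, 19310 had a peak in 0 H3K27ac lists, which was 30.7% of the constitutive regions, and 14263 (22.7%) had one in all 8. The 7 classes between held 3320 to 5517 regions each. The single lists marked between 39.2% of the constitutive regions (knockout HSCs after PBS) and 49.4% (wild-type HSCs after 5FU). The regions that 1 list alone kept out of the set numbered 277 (knockout HPCs after IL-1) to 1287 (wild-type HSCs after 5FU).

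**Figure D1:**
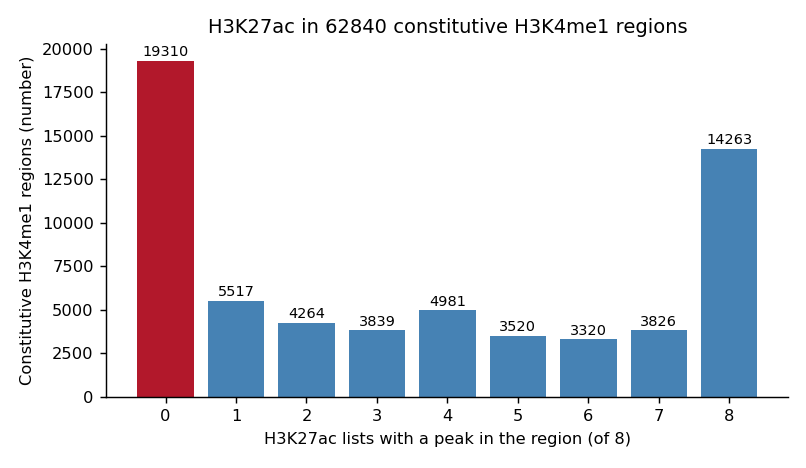
Number of constitutive H3K4me1 regions (vertical axis) by the number of the 8 H3K27ac lists with a peak in the region (horizontal axis). The 19310 regions at 0 are the members, and the next largest class is the 14263 regions with a peak in all 8 lists.

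Members were narrower than the constitutive regions with H3K27ac, at a median width of 580 bp (quartiles 385 and 881) against 880 bp (539 and 1445). In the wild-type HSC list their median fold enrichment, the authors' own value per peak, was 3.05 against 3.38, and 24.7% of members against 48.4% lay in the top quartile of that list by −log10 p. These values belong to the choice. In the other 5 lists of the choice, the best peak in a member had a median fold enrichment of 3.30 in heterozygous HSCs, 3.52 in knockout HSCs, 3.66 in wild-type HPCs, 3.51 in heterozygous HPCs and 3.40 in knockout HPCs. Peaks of those lists covered 82.7% to 89.4% of the bases of the members.

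The edge of the choice was narrow. In all, 253 members lay within 20 bp of an H3K27ac peak, and 255 constitutive regions overlapped one by up to 20 bp. Members in Dnm3 (564 bp) and Enpp1 (168 bp) and beside Pipox (329 bp) touched an H3K27ac peak, with fold enrichments of 3.21, 2.97 and 2.09 in wild-type HSCs. Regions in Dgkd (205 bp) and Tbc1d10a (449 bp) and beside Slc16a9 (443 bp) overlapped one by 1 bp and were left out, with 2.77, 2.21 and 3.43. The values on either side of the edge overlapped.

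Strength was summarised as consensus, the lowest percentile that the best peak of a region reached in any of the 6 lists by −log10 p. Its median over members was 32.2, with quartiles 15.7 and 51.4. The member with the highest consensus, 98.9, lay at chr11:96876553-96879815, 15349 bp from Copz2, a subunit of vesicle coats. Its fold enrichments were 5.36, 5.56 and 5.65 in wild-type, heterozygous and knockout HSCs and 6.68, 6.10 and 5.85 in the same order in HPCs. All 4 H3K4me1 lists at 16 weeks covered it, over 1912 to 3263 of its 3263 bases, and the nearest H3K27ac peak was 2708 bp away.

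The next 9 by consensus (95.3 to 98.9) all lay in gene bodies, those of Gse1, Mepce, Arid1a, Acvr1b, Anxa2, Ncoa4, Hsd17b11, Zc3h3 and Ints7. Mepce caps the 7SK RNA that restrains transcription elongation, Arid1a is a subunit of the BAF chromatin remodeller, and Ints7 is a subunit of Integrator, which cleaves nascent RNA. The Gse1 region (chr8:120265596-120266749) had 3.92, 5.55 and 4.39 in the 3 HSC lists and 5.62, 4.90 and 6.14 in the HPC lists, with 716 to 1111 of 1154 bases covered at 16 weeks. The Arid1a region (chr4:133741601-133744215) had 5.20, 4.65 and 4.81 in HSCs and 5.76, 5.79 and 5.76 in HPCs, with 2166 to 2615 of 2615 bases covered at 16 weeks. H3K27ac peaks lay close to most of these 10 regions, from 18 bp (Mepce) to 2708 bp (Copz2). The strongest regions by H3K4me1 were thus not the ones farthest from H3K27ac.

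The widest members were found in Ccdc85c (6978 bp), Gypc (5626 bp), Adm (5432 bp), Ebf2 (4828 bp), Ppp2r2a (4229 bp), Slc22a3 and Galnt9 (4181 bp each), Ip6k2 (4147 bp), Nfix (4042 bp) and Map3k8 (3999 bp). Adm encodes the vasodilator peptide adrenomedullin, Ebf2 a transcription factor of brown fat, Gypc the red-cell membrane protein glycophorin C and Map3k8 a kinase of inflammatory signalling. The Adm member (chr7:110624920-110630351) had fold enrichments of 4.72, 4.14 and 4.35 in HSCs and 4.03, 4.36 and 4.33 in HPCs, and lay 10029 bp from H3K27ac. At 16 weeks it had 3032 covered bases in wild-type HSCs after PBS, 2962 in knockout HSCs after PBS, 4863 in wild-type HSCs after 5FU and 2786 in knockout HSCs after 5FU. The Ebf2 member (chr14:67233367-67238194) had 829, 894, 3138 and 1026 in the same order, so most of it was outside the peaks of 3 of these lists. The Galnt9 member was the only one of the 10 with 0 covered bases in a 16-week list, that of knockout HSCs after 5FU.

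Members lay both beside H3K27ac peaks and far from them. The median distance from a member to the nearest H3K27ac peak was 1800 bp (quartiles 420 and 9238), and 7764 members lay under 1 kb from a peak, 6939 at 1 to 10 kb and 4607 at 10 kb or more. The median gap from a member to the next was 3402 bp (quartiles 190 and 25710), and 53.8% had another member within 5 kb. Between neighbouring H3K27ac peaks, 11715 stretches held at least 1 member, of which 7507 held a single one, 374 held 5 or more and 19 held 10 or more.

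These dense stretches were looked for after the values were seen. The densest, with 14 members over 32.1 kb on chromosome 13, lay in Gpbp1, which encodes a GC-rich promoter binding protein, and the 4 lists at 16 weeks found 13, 13, 14 and 14 of them. In Kat6a, which encodes a histone acetyltransferase needed for HSCs, 13 members lay in 75.3 kb, of which 9 (knockout, PBS) to 13 (wild type, 5FU) were found at 16 weeks. Stretches of 12 members lay across Camkmt, Six3 and Six2 (327.9 kb), Snx3 and Nr2e1 (173.7 kb) and Mmp9, Slc12a5 and Ncoa5 (97.2 kb). Stretches of 11 included those of Olig2 and Olig1 (161.0 kb), Dmrt1, Dmrt3 and Dmrt2 (1128 kb) and Flt1, a VEGF receptor (142.2 kb). Others of 11 lay in Yy1 (15.76 kb), across Raly and Eif2s2 (98.35 kb) and across Wnt10b, Wnt1, Ddn and Prkag1 (56.3 kb). Gpbp1, Snx3, Camkmt, Ncoa5, Yy1, Prkag1, Raly and Eif2s2 had an H3K27ac peak within 1 kb of a listed start. Olig2 did not, so both kinds of gene were among them.

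Regions at 10 kb or more from H3K27ac could also be strong, and the following were picked after their values were seen. The member with the highest consensus of these, 94.8, lay at chr13:54185662-54187893, 4076 bp from the histamine receptor gene Hrh2, and 12764 bp from H3K27ac. Its fold enrichments were 5.44, 5.69 and 5.08 in wild-type, heterozygous and knockout HSCs and 6.13, 5.46 and 4.43 in HPCs. A member in Ppargc1a (chr5:52005989-52009951, consensus 91.5), which encodes a coactivator of mitochondrial genes, lay 76819 bp from H3K27ac and had 4.72, 4.92 and 4.50 in HSCs and 4.75, 5.22 and 5.22 in HPCs. A member in Mmp9, a matrix protease, was 24190 bp away with a consensus of 92.2.

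Most members lay inside genes. Of 19310 members, 13762 (71.3%, Wilson 95% interval 70.6 to 71.9, counting error only, as for all intervals here) overlapped a protein-coding gene, against 67.7% of the constitutive regions with H3K27ac and 67.7% of all wild-type HSC regions. Within 1000 bp of a gene end lay 12.2% of members (11.7 to 12.6) and 17.6% of the regions with H3K27ac, against 13.8% of all wild-type HSC regions and 11.4% of those that were not constitutive, so the members were near the background. Exons, introns and UTRs are not told apart by the gene table used here.

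Relative to gene starts, members sat farther downstream than the acetylated regions. Of the members on chromosomes with listed starts, 19.2% (18.7 to 19.8) had their centre 1 to 5 kb downstream of a protein-coding start, against 13.4% (13.1 to 13.7) of the constitutive regions with H3K27ac and 12.7% of all wild-type HSC regions. Upstream, at 1 to 5 kb, the shares were 5.42% and 5.62%. In steps of 500 bp, members were most frequent from 1500 bp downstream (3.89% of members), and the acetylated regions from 1000 bp downstream (4.83%). The members there were mostly close to an acetylated neighbour: 28.7% of members under 1 kb from H3K27ac lay 1 to 5 kb downstream of a start, against 16.5% at 1 to 10 kb and 7.26% at 10 kb or more.

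**Figure D2:**
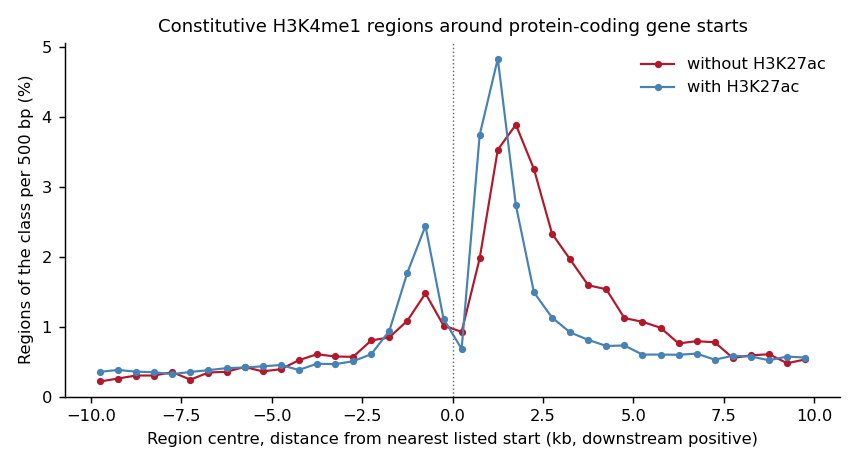
Share of each class of constitutive regions (vertical axis, % per 500 bp) by the distance of the region centre from the nearest listed protein-coding start (horizontal axis, kb). Regions without H3K27ac peak at 1500 to 2000 bp downstream (3.89%), regions with H3K27ac at 1000 to 1500 bp (4.83%), and both dip at the start.

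Most members inside genes had a host gene that was acetylated at its start. Of 10948 members inside genes with a listed start, 79.7% had a host gene whose start was within 1 kb of an H3K27ac peak. The share was 90.8% for constitutive regions with H3K27ac. Both shares count regions, so a gene with many regions counts many times. Counted once per gene, 56.1% of all 17273 protein-coding genes with a listed start had such a peak, which is not a like measure. By region, the share was 91.9% for members under 1 kb from H3K27ac, 83.8% at 1 to 10 kb and 44.1% (41.9 to 46.2) at 10 kb or more. The last group also differed in position, with 60.0% in genes, 17.7% within 1000 bp of a gene end and 4.30% on a protein-coding promoter, against 75.5%, 11.8% and 1.13% for the nearest group.

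The genes with the most members in the gene and 50 kb on each side were long genes. Gse1 had 34 members among 109 constitutive regions, Asap1, a regulator of Arf GTPases, 33 of 61, and Rere, a co-repressor, 31 of 75. Fmnl2, an actin regulator, and the transcription factor gene Nfia had 24 of 41 and 24 of 43, and Ankrd11, a chromatin regulator, 24 of 77. Arid1b, a BAF subunit, had 23 of 110, Iqgap2 22 of 63, Prkce 22 of 54 and Hivep3 22 of 56. The shares without H3K27ac thus ranged from 20.9% (Arid1b) to 58.5% (Fmnl2) around a background of 30.7%. Of 21627 protein-coding genes, 13279 (61.4%) had at least 1 member in this window, and 272 of 13571 with at least 3 constitutive regions had no acetylated one.

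Among genes of reference, counted in the same window, Kmt2c itself had 3 members among 5 constitutive regions. Mecom, a factor of long-term HSCs, had 8 of 42, Spi1 and Cebpa, which drive myeloid development, 3 of 16 and 1 of 16, and the lymphoid genes Il7r and Ebf1 0 of 1 and 2 of 3. The NF-kB inhibitor gene Nfkbia had 3 of 15 and the p53 target Cdkn1a 6 of 16. Within 10 kb, Nfkbia and Cdkn1a had 0 of 3 each and Il7r had no constitutive region. Kmt2c had 2 of 3 there, Mecom 8 of 42, Spi1 2 of 10, Cebpa 1 of 7 and Ebf1 2 of 3.

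Around the regulators of tissues outside blood, nearly every constitutive region lacked H3K27ac. The list held 30 genes such as Sox2, Pax6, Olig2 and Nkx2-5, of which 28 had a constitutive region within 50 kb. Of the 124 constitutive regions there, 118 were members (95.2%, 89.8 to 97.8), against 30.7% of all constitutive regions. In 23 of the 28 genes every constitutive region was a member. Of the 118 members, 112 lay 10 kb or more from any H3K27ac peak, where 4607 of all 19310 members lay. None of the 20 genes with a listed start had an H3K27ac peak within 1 kb of it. The absence of H3K27ac chose these regions, so the share is a description of where the members lie.

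The genes of that list were not equally supplied. Lhx2, a homeobox gene of forebrain and limb, and Olig2 had 9 members each of 9 constitutive regions, Irx3 7 of 7, and Six2, a factor of kidney progenitors, 9 of 10. Barx1, Foxa2, Lhx9, Nkx2-5 and Pax6 had 5 of 5 each, Gata6 7 of 9 and Tbx5 5 of 6. Whole families of such genes were counted after values were seen, and they include genes of the list, so these counts partly repeat its regions. Their shares ran from 14 of 14 regions for Irx genes, with Irx3 among them, to 47 of 134 for Sox. Between these lay Dlx with 26 of 30, Nkx with 44 of 59 and Fox with 151 of 407. Among families with members known for roles in blood, the shares were mixed: 9 of 54 for Cebp, 28 of 158 for Irf and 26 of 143 for Klf, but 21 of 36 for Gata, 10 of 19 for Hoxa and 7 of 17 for Hoxb. The Gata count pools genes of both kinds. Gata6 (7 of 9) and Gata4 (3 of 4) are in the developmental list, and Gata3 (7 of 13) and Gata2 (2 of 7) in the blood lists.

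The other 13 gene lists had shares from 19.4% to 42.5%. Lists of blood lineages and of the inflammatory response had 38 of 196 regions for granulocytes and monocytes (19.4%, 14.5 to 25.5), 41 of 202 for the interferon response (20.3%), 51 of 227 for the NF-kB and IL-1 response (22.5%) and 133 of 535 for HSC identity (24.9%, 21.4 to 28.7). Mature T, NK and B cell genes had 32 of 129 (24.8%), quiescence and immediate early genes 82 of 318 (25.8%), lymphoid genes 77 of 293 (26.3%), cell cycle genes 64 of 233 (27.5%), housekeeping genes 76 of 268 (28.4%) and megakaryocyte and erythroid genes 66 of 231 (28.6%). Their intervals reached up to between 25.5% and 34.7%. Genes of tissues outside blood that are not regulators, such as Alb, Ckm and Sftpc, had 42 of 138 (30.4%), close to the background, although none of the 19 with a listed start had H3K27ac within 1 kb of it. Stroma and endothelium genes had 53 of 165 (32.1%), and genes of H3K4 methylation and enhancer complexes 93 of 219 (42.5%, 36.1 to 49.1).

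These shares moved with the H3K27ac threshold more than that of the developmental list did. Counting only regions without H3K27ac within 1000 bp, the share was 9.33% for housekeeping, 9.69% for granulocyte and monocyte, 9.90% for interferon, 11.0% for NF-kB and IL-1, 11.6% for cell cycle, 15.5% for HSC identity, 15.9% for silent tissue genes and 25.6% for the methyltransferase list, against 91.9% for developmental regulators. Lymphoid, mature lymphocyte, megakaryocyte and erythroid, and quiescence genes had 14.1% to 16.7%, and stroma and endothelium 24.8%. Over all constitutive regions the share with this margin was 18.4%. With only H3K27ac peaks of −log10 q of at least 2, granulocytes and monocytes had 30.6% and the other 12 lists 27.2% to 51.1%. The share over all constitutive regions was then 40.4%. Within 10 kb of the genes, silent tissue genes had 7 of 17 (41.2%, 21.6 to 64.0) and megakaryocyte and erythroid genes 36 of 92 (39.1%, 29.8 to 49.4). Both intervals still held the 30.7% of all constitutive regions under the main rule.

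**Figure D3:**
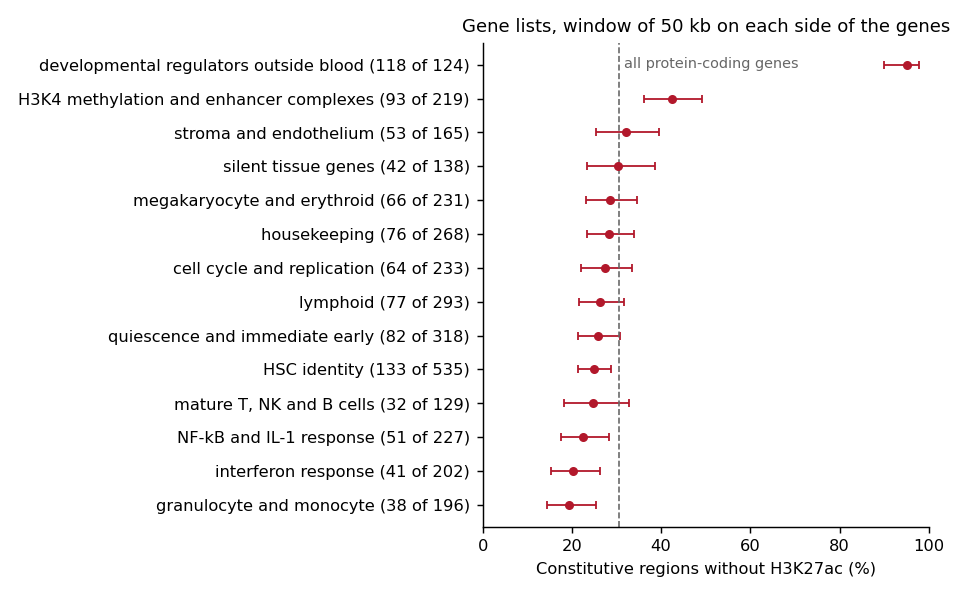
Share of constitutive regions without H3K27ac (horizontal axis, %, points with Wilson 95% intervals) within 50 kb of the genes of 14 lists, with the number of members and of constitutive regions beside each name; the dashed line is the share over all protein-coding genes (30.6%). The developmental regulators lie at 95.2% and the other lists between 19.4% and 42.5%.

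Members lay near 19 of 22 housekeeping genes and 17 of 22 of the NF-kB and IL-1 list. They lay near 14 of 24 granulocyte and monocyte genes and 15 of 28 silent tissue genes. Over all protein-coding genes the share was 61.4%, so a member near a gene was common everywhere. The genes with the most members in each list are named here, counted in the gene and 50 kb on each side. Of the HSC identity genes, Nfia (24 members), Runx1 (19 of 72 regions), a master factor of definitive blood, and Meis1 (12 of 44), a homeobox factor of HSCs, had the most. Of the methyltransferase and enhancer genes, Kmt2a had 15 of 22, and Dpy30 (11 of 17), Kdm1a (11 of 16) and Kmt2d (11 of 17) followed. Kmt2a and Kmt2d encode the H3K4 methyltransferases MLL1 and MLL4, Dpy30 a subunit they share and Kdm1a an H3K4 demethylase.

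In the lineage lists, Gfi1, a repressor needed for neutrophils, had 9 of 22 regions, and Elane and Prtn3, neutrophil proteases, 5 of 20 each. Elane and Prtn3 are neighbours on chromosome 10 with overlapping windows, so their counts share regions and are not separate. Nfe2, a megakaryocyte factor, had 9 of 37, the transferrin receptor gene Tfrc 9 of 12 and Klf1 6 of 13. Among lymphoid genes, Foxo1 had 10 of 11, Flt3 9 of 29 and Lef1 8 of 13, and among those of mature cells Prf1 had 6 of 10, Fcer2a 5 of 13 and Cd5 4 of 21. Foxo1, whose start lay near H3K27ac, had a single acetylated constitutive region.

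In the response and maintenance lists the leading genes were Nfkb2 (6 of 15), Tnf (6 of 29) and Bcl3 (5 of 17) for NF-kB, and Usp18 (7 of 13), Bst2 (6 of 14) and Ifit1 (4 of 9) for interferon. Foxo3, a factor of HSC quiescence, had 16 of 39, Fosb 7 of 23 and Btg2 6 of 19. Ccnd3 had 7 of 41, Cdk4 7 of 16 and Cdk6 7 of 26, and of the housekeeping genes Tubb5 had 10 of 23, Ppia 8 of 16 and Rplp0 6 of 25. Of the stromal and endothelial genes Flt1 had 15 of 20, Acta2 8 of 11 and Pdgfra 5 of 5, and of the silent tissue genes Amh had 7 of 18, Prm1 7 of 23 and Sftpc 5 of 5. High shares in single windows of 50 kb thus occurred outside the developmental list as well, but the members could lie far from the named gene. Within 10 kb, Flt3 had 0 of 10, Prf1 0 of 3, Tnf 0 of 9 and Amh 0 of 3. In contrast, Foxo1 had 10 of 11, Flt1 12 of 14 and Pdgfra 5 of 5 within 10 kb.

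Developmental regulators also had members at their promoters. Members overlapped a listed promoter of 367 of 17273 protein-coding genes, a background of 2.12%. Of the 20 developmental regulators with a listed promoter, 10 overlapped one: Foxa2, Hand2, Irx3, Msx1, Neurog2, Nkx2-1, Olig2, Pax2, Pax6 and Sox2. In the other 13 lists, 5 genes did, namely Fcgr3, Lef1, Tnfaip3, Cxcl12 and Pdgfra. They made 1 of 19 granulocyte and monocyte, 1 of 22 lymphoid, 1 of 17 NF-kB and IL-1 and 2 of 12 stroma and endothelium genes. No HSC identity, megakaryocyte and erythroid, mature lymphocyte, interferon, cell cycle, quiescence, housekeeping or methyltransferase gene did, and neither did any of the 19 silent tissue genes. These lists held only 15 to 19 genes with a listed promoter each. With a background of 2.12%, a count of 0 does not set any of them apart.

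The member at the Msx1 promoter (chr5:37824720-37825670) had fold enrichments of 4.01, 3.42 and 3.70 in wild-type, heterozygous and knockout HSCs and 3.48, 3.32 and 3.40 in HPCs. At 16 weeks it had 600 and 525 covered bases in wild-type and knockout HSCs after PBS and 901 and 703 after 5FU, of 951, and it lay 64984 bp from H3K27ac. All 4 lists found it.

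The member at Olig2 (chr16:91224601-91225518) had 2.90, 5.20 and 3.62 in HSCs and 3.41, 3.45 and 3.37 in HPCs. At 16 weeks it had 323 and 662 of 918 bases in the wild-type lists (PBS and 5FU) and 0 in both knockout lists. The member at Sox2 (chr3:34649896-34650191) was the narrowest of the 3, at 296 bp, with 2.47, 4.40 and 3.56 in HSCs and 2.21, 3.79 and 2.62 in HPCs. It was absent from 3 lists at 16 weeks and had 295 bases in wild-type HSCs after 5FU, and it lay 428131 bp from H3K27ac. The members at Irx3 and Hand2 showed that pattern too, with 319 of 959 and 633 of 866 bases after 5FU in wild-type HSCs and 0 in the other 3 lists. The wild-type 5FU list was also the largest, and its size and the condition cannot be told apart here.

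The member at Fcgr3 (chr1:171059349-171059923) had 3.15, 2.73 and 2.76 in HSCs and 3.57, 2.40 and 3.75 in HPCs, and 398, 425, 575 and 575 of 575 bases at 16 weeks (wild type and knockout after PBS, then after 5FU). The one at Tnfaip3 (chr10:19011172-19012348) had 2.78, 2.72 and 3.01 in HSCs and 3.79, 3.66 and 3.19 in HPCs, with 759, 344, 1177 and 640 of 1177 bases, and an H3K27ac peak 972 bp away. The one at Lef1 (chr3:131112314-131113436) had 3.93, 2.63 and 4.06 in HSCs and 3.47, 3.73 and 2.78 in HPCs, with 302, 182, 755 and 95 of 1123 bases, and lay 43550 bp from H3K27ac. All 3 members were found in every list at 16 weeks. Tnfaip3 and Lef1 each had another listed start within 1 kb of an H3K27ac peak, so the member marks 1 start and not the whole gene. No listed start of Fcgr3 lay within 1 kb of H3K27ac.

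The CpG number was not used in the choice. It was higher in promoters with members than in those with acetylated constitutive regions, with overlapping quartiles, and close to that of promoters in the remaining H3K4me1 regions. The 404 promoters that overlapped a member had a median of 13 CpG (quartiles 6 and 20) in 300 bases, and the 1137 in constitutive regions with H3K27ac a median of 6 (3 and 13). At least 10 CpG were found in 63.9% (59.1 to 68.4) and 33.3% (30.7 to 36.1) of them, against 57.3% of all 21044 promoters, whose median was 13. The 950 promoters in wild-type HSC regions that were not constitutive had a median of 12 (6 and 20), and 60.8% (57.7 to 63.9) reached 10 CpG, so the CpG number was not particular to members. Promoters outside every wild-type HSC region but with H3K27ac, where H3K4me1 is commonly low, had a median of 23 and reached 10 CpG in 90.8%. The G+C content had medians of 58.0% with a member and 54.3% with an acetylated constitutive region.

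Short motifs were counted in the same windows. The letters GGGCGG, the core of the GC box bound by Sp1, occurred on either strand in 53.0% of promoters with a member, 33.7% of those in acetylated constitutive regions and 46.7% of all promoters. TATAAA occurred on either strand in 10.6%, 11.1% and 12.7%. In promoters of wild-type HSC regions that were not constitutive, GGGCGG occurred in 48.4% and TATAAA in 11.5%. GGGCGG itself holds a CpG, so its share is not separate from the CpG number. These motifs do not overlap each other, and a match is a description of letters, not of a bound site.

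**Figure D4:**
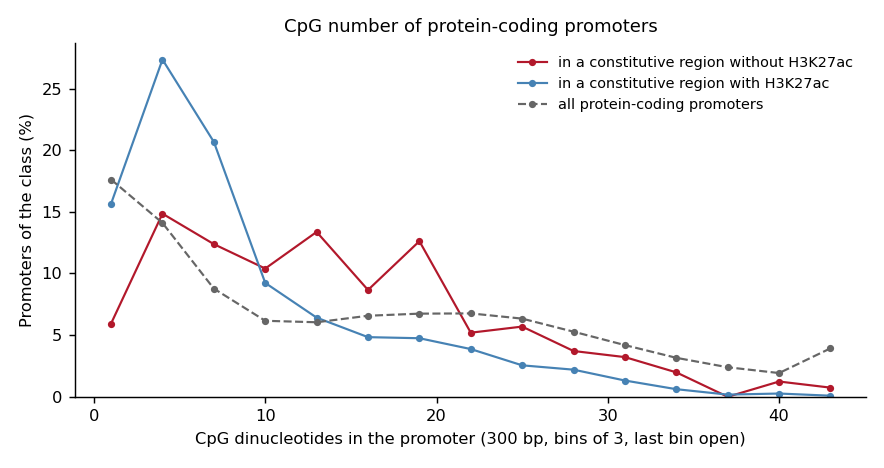
Share of protein-coding promoters (vertical axis, %) by the number of CpG dinucleotides in 300 bp (horizontal axis, bins of 3; the last point holds 42 and more). Promoters with a member have a median of 13, those in constitutive regions with H3K27ac a median of 6, with their mode at 3 to 5, and all promoters are shown by the dashed line.

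Of 963 microRNA hairpins with a Mir symbol in the RefSeq table (GRCm38.p6), 11 overlapped a member (1.14%, 0.639 to 2.03) and 64 an acetylated constitutive region (6.65%). Members covered 13.5 Mb and the acetylated constitutive regions 50.18 Mb, and the counts are not corrected for this. The Mir9-2 member (chr13:83738056-83738846), 78407 bp from H3K27ac, had fold enrichments of 3.53, 3.05 and 3.20 in HSCs and 3.57, 3.68 and 3.33 in HPCs, and 726, 535, 791 and 433 of 791 bases at 16 weeks. The Mir9-1 member (chr3:88215492-88216322), 36700 bp away, had 3.15, 2.75 and 2.33 in HSCs and 3.11, 3.48 and 3.64 in HPCs, but 194 of 831 bases in wild-type HSCs after 5FU and 0 in the other 3 lists. Both loci make the mature sequence shown above. The Mirlet7a-1 and Mir148a members lay close to H3K27ac, at 485 and 31 bp, and the other 7 hairpins were those of Mir202, Mir546, Mir3083, Mir5123, Mir6999, Mir7048 and Mir7686.

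In the H3K4me1 lists at 16 weeks, which the choice did not use, most members were found again. Of 19310 members, 12698 overlapped a peak in wild-type HSCs after PBS (65.8%, 65.1 to 66.4), where 55.9% of all wild-type HSC regions did. In knockout HSCs after PBS 10966 did (56.8%, background 49.0%), in wild-type HSCs after 5FU 18164 (94.1%, background 84.6%), and in knockout HSCs after 5FU 10938 (56.6%, background 47.9%). The mean of the 4 shares was 68.3%. In bulk samples, fewer cells with a mark and less of it per cell cannot be told apart. All 4 lists found 7379 members (38.2%), and 855 (4.43%) were in none. Over all wild-type HSC regions the shares were 34.5% and 13.4%, and over the acetylated constitutive regions 63.1% and 1.31%, so the share in all 4 lists was nearer to that of all regions.

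The share of members found was below that of the constitutive regions with H3K27ac. The latter overlapped a peak in 82.7%, 75.3%, 98.1% and 76.1% of cases in the same order, so that members lay 17.0, 18.5, 3.99 and 19.5 points lower, beyond the counting error of both shares in every list. No replicate error stands behind this difference. The counting error takes regions as independent, although 53.8% of members and 75.4% of acetylated constitutive regions had another of their class within 5 kb. The intervals may therefore be too narrow. Strength and width of the 8-week region moved with these shares. In the top quartile of strength, 84.7% of members and 94.3% of acetylated regions were found in wild-type HSCs after PBS, and in the lowest quartile 46.4% and 57.9%. In the top quartile of width the shares were 87.8% and 95.9%. In all 8 quartiles and all 4 lists members were below the acetylated regions, by the least in the wild-type 5FU list, where the top quartiles of both classes were nearly complete (98.7% and 99.7% for strength).

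**Figure D5:**
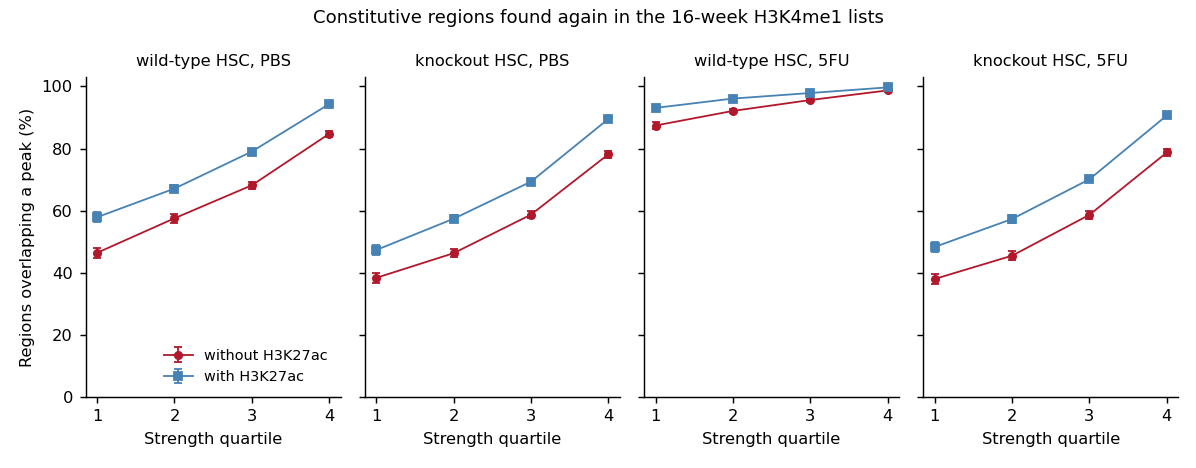
Share of constitutive regions that overlap an H3K4me1 peak at 16 weeks (vertical axis, %, with Wilson 95% intervals) by quartile of −log10 p in the 8-week wild-type HSC list (horizontal axis, 4 is the strongest), in 4 lists. Members lie below regions with H3K27ac in each quartile, as at 46.4% and 57.9% in the lowest quartile of wild-type HSCs after PBS.

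Members far from H3K27ac had lower shares than those near it. Under 1 kb from H3K27ac, 67.4% of members were found in wild-type HSCs after PBS, at 1 to 10 kb 67.5% and at 10 kb or more 60.5% (59.0 to 61.9). In knockout HSCs after PBS the shares were 59.1%, 58.0% and 51.1%. Members that overlapped a protein-coding promoter had 62.7% (57.8 to 67.3) and 57.0% in these lists. The 118 members around developmental regulators had 55.9% (46.9 to 64.6) and 47.5%, and 95.8% and 54.2% after 5FU, and 31 of them were in all 4 lists.

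Between genotypes, the members were close to the regions as a whole. After PBS, 9108 members were in both lists, 3590 in the wild-type list alone and 1858 in the knockout list alone, so that the knockout held 34.1% (32.9 to 35.4) of the members found in 1 of the lists, against 34.7% of all wild-type HSC regions and 30.4% of the acetylated constitutive ones. With 76274 peaks in each list, the numbers were 3370 and 2196, and the knockout held 39.5% against 39.9%. After 5FU, 7309 members were in the wild-type list alone and 83 in the knockout list alone, 1.12% against 1.16% over all regions, and with equal numbers of peaks 5324 and 751 (12.4% against 11.6%).

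Between treatments, 5621 members were in the wild-type list after 5FU but not after PBS, and 155 the reverse, which made 97.3% against 96.6% over all regions. With equal numbers of peaks these were 4800 and 909 (84.1% against 83.7%). In knockout HSCs, 2659 members were found after 5FU alone and 2687 after PBS alone, and 2971 and 2479 with equal numbers of peaks (54.5% against 52.4%). These comparisons share lists with those between genotypes. The wild-type 5FU list also differs from the others in its libraries, so treatment and libraries cannot be told apart in it.

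Members were rare on the X chromosome, as were H3K4me1 regions of every kind. It held 47 members (0.243%), 0.140% of the acetylated constitutive regions and 0.517% of all wild-type HSC regions.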

How the data were processed

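The 63 samples with a list fell into 18 groups by their labels, and 6 input chromatin samples had no list. The deposited lists hold 1 pooled set of peaks per group with the authors' fold enrichment (a linear ratio) and the −log10 p and −log10 q of the peak caller, none of which was rescaled here. The tools named are Novoalign and MACS2 and the build is mm10 (GRCm38), per the submitters' processing notes, while versions, filters and pooling steps are not given in the sources used. Read numbers were not used, so the depth is unknown.

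Touching peaks on chromosomes 1 to 19 and X were merged, and overlaps were counted from 1 bp. Shares have Wilson 95% intervals from scipy 1.17.1 (Python 3.11.15, numpy 2.4.6, pandas 2.3.3), which cover counting error only and take regions as independent. The interval functions were tested on simulated data. The named genes are the 10 members of highest consensus, the 10 widest, the 10 genes with most members, up to 3 per gene list, 3 regions on each side of the threshold and 8 reference genes. Genes came from a RefSeq table of GRCm38.p6 (323 of 325 listed symbols matched a protein-coding entry), promoters from 17273 of 21627 protein-coding genes. The members, lists and rules were chosen with earlier results of these data known. Alternatives changed the overlap, peak thresholds, merging, H3K27ac lists, margin, starting list and window.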

Additional observations from a re-analysis of the deposited data

How the results depend on the processing

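With 1 pooled list per group, no replicate could be left out. No paired analysis was possible because the lists hold no values for single libraries. The number of members stayed within 1.5 times of 19310 under 7 of 9 settings, and was 10512 with peaks within 500 bp merged and 11546 without H3K27ac within 1000 bp. The mean share of members found in the 4 lists at 16 weeks (68.3%) was 71.5% with overlaps of 50%, 70.7% with 8-week lists of equal size, 69.7% after merging, 69.5% and 72.0% with the HSC or HPC H3K27ac lists alone, 66.9% with the 1000 bp margin, 70.5% with H3K27ac at −log10 q of 2 or more and 69.5% starting from HPCs. It was 49.4% when 50% of the bases had to be covered, 62.8% with 16-week lists of equal size, 52.5%, 60.4%, 70.3% and 85.1% from the lowest to the highest quartile of strength, and 49.8%, 57.8%, 70.3% and 86.9% for width. Members were below acetylated regions in each of 9 settings that redid both classes, by 13.0 to 18.7 points in wild-type and 14.6 to 21.4 in knockout HSCs after PBS, and 2.79 to 4.56 and 16.4 to 23.3 after 5FU. The share in genes (71.3%) was 67.7% after merging, 69.2% with HPC lists alone, 68.4% with the margin and 70.4% with the H3K27ac threshold. The share near gene ends (12.2%) was 12.9% with overlaps of 50%, 16.7% after merging, 12.8% and 11.1% with HSC or HPC lists alone, 10.9% with the H3K27ac threshold, 12.8% starting from HPCs and 27.2% within 2.5 kb. Around developmental regulators, 100% of constitutive regions within 10 kb were members, and 91.9% and 97.6% with the margin and the H3K27ac threshold. Each cause was not tested. Depth is unknown, so a weak mark under the peak threshold is not told apart from none.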
